A study of Rattus norvegicus with 20 samples.

Results

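Vinclozolin was compared with its vehicle in testes of rat embryos at embryonic day 14 (E14), the last day of exposure, on 4 of the 20 oligonucleotide arrays of the series. The vinclozolin group was 2 arrays of testes from Sprague-Dawley embryos whose dams had been injected daily with 100 mg/kg of vinclozolin in DMSO on E8 to E14. The vehicle group was 2 arrays of testes of the same strain and age whose dams had received DMSO alone on the same days. The other 16 arrays were testes at E13 and E16 of the same exposure (8 arrays) and E13 testes cultured with vinclozolin, flutamide or a vehicle (8 arrays). Sex had been read by a PCR for Sry on DNA from the tails, and testis cords had been seen in sections at E14. The arrays of a group are called biological replicates in the labels, which do not say how many embryos or dams each RNA came from, so p-values measure only the spread between these arrays. All genes were carried through, and differences were then divided by their pattern over the 4 arrays. Differences in which both vinclozolin arrays lay outside both vehicle arrays are given first, and those that came from vehicle replicate 1 alone after them.

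Vinclozolin is a dicarboximide fungicide whose metabolites oppose the action of androgens. In the embryonic testis, Sertoli cells enclose the germ cells in cords, secrete anti-Müllerian hormone and direct the differentiation of fetal Leydig cells, which then make androgen. Class II molecules of the major histocompatibility complex, which come up below, are pairs of an alpha and a beta chain that present peptides to helper T cells and are made mainly by macrophages, dendritic cells and B cells.

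The 4 arrays had been scaled by the authors to 1 trimmed mean intensity, 210.1, and their median intensities were 62.5 and 71.6 with vinclozolin and 71.5 and 69.1 with vehicle. Beta-actin signal at the 3' end over that at the 5' end, which grows as RNA degrades, was 1.73 and 2.93 with vinclozolin and 1.98 and 1.8 with vehicle. Across probe sets, the log2 values of vehicle replicate 2 correlated with both vinclozolin arrays (Pearson's r 0.9810 and 0.9812) more closely than the vinclozolin arrays did with each other (0.9726). Vehicle replicate 1 stood apart, with correlations of 0.9653 to 0.9705 to the other 3. Where leaving it out moved the E14 difference printed for a gene by 1.5 times or more, the difference against vehicle replicate 2 alone is given too. Sertoli cell markers, which the tissue label implies, were read on all 4 arrays. Their summed intensity (Amh, Dhh, Ptgds and Inhbb) was 8691.5 and 6913.7 with vinclozolin and 2291.3 and 8105.7 with vehicle. Eif2s3y, a Y-linked gene, read 902.6 and 1094.8 with vinclozolin and 1237.5 and 1248.9 with vehicle. At E13 and E16 it was higher, at 2363.1 to 3495.7. Xist, the RNA that coats an inactive X chromosome, read 32 and 489.9 with vinclozolin and 174.9 and 184.4 with vehicle. It read 17.9 to 896 at E13 and 2.4 to 16.6 at E16. What these sex-linked values say of the cells on the E14 arrays was not tested. Of the Leydig cell markers, Cyp17a1 and Insl3 lay under the 40th percentile of all 4 arrays. Sox9 and the germ cell markers Ddx4, Dazl, Pou5f1, Dnd1 and Mael were not analysed here.

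In limma over all 20 arrays (2 arrays per group, p adjusted by Benjamini-Hochberg over 22526 probe sets), 1 probe set passed an adjusted p of 0.05 at E14, 0.00444% of those tested. At an unadjusted p under 0.05 there were 1239 (5.50%). The single call was RT1-Bb, the beta chain of the class II molecule RT1-B (chromosome 20, 4598475 to 4604118 in the GRCr8 assembly). RT1-Bb read 213.3 and 147.7 with vinclozolin, against 8.9 and 5.8 with vehicle. Both vinclozolin arrays lay above all 18 other arrays of the series, on which it read 2.6 to 53.6 with a median of 20.3. Among those 18, the arrays of the flutamide culture and its vehicle had a lower trimmed mean, 107.0, so their intensities are not on the same scale. On the scale of log2(intensity + 16), RT1-Bb rose by 3.06 at E14 (SE 0.38, limma adjusted p = 0.00855). Both vehicle arrays were under the 40th percentile of their array, and counted from that percentile the difference was 1.80. The call was lost without vehicle replicate 1 (3.15, adjusted p = 0.137), without vinclozolin replicate 1 (2.81, 0.118), with a pseudocount of 1 (4.44, 0.301) and with the 4 E14 arrays alone (3.06, 0.0639). The direction was the same in each of these fits. With 2 arrays against 2, an exact permutation test cannot go below p = 0.333 for a single gene.

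The other genes of the class II pathway were not called. RT1-Ba, the alpha chain that pairs with RT1-Bb, has its gene at chromosome 20, 4577057 to 4581650, and is read by 4 probe sets. One of them read 17.7 and 22.3 with vinclozolin, against 5 and 3.4 with vehicle, all under the 40th percentile (log2 difference 0.83, SE 0.36, limma adjusted p = 0.888). Another RT1-Ba probe set read 14.6 and 70.3 with vinclozolin, against 77.6 and 11.5 with vehicle, so the groups overlapped. They also overlapped on the remaining tested one, at 48.2 and 16.9 with vinclozolin and 60.6 and 34 with vehicle. The last RT1-Ba probe set was too low to be tested. RT1-Da, another class II chain, read 11.4 and 22.8 with vinclozolin and 25.5 and 18.5 with vehicle. RT1-DMa, a further chain, differed by 0.24. A further probe set of RT1-Bb itself, too low to be tested, read 2.1 and 15.1 with vinclozolin and 3.8 and 15.5 with vehicle. The rise was thus seen on 1 of the 2 RT1-Bb probe sets. Cd74, the invariant chain that escorts class II molecules, read 100.7 and 80.3 with vinclozolin, against 47.4 and 85.4 with vehicle. RT1-DMb, a chain of the peptide loader, read 152.6 and 122.9 with vinclozolin, against 126.2 and 73.5 with vehicle. Both probe sets of Ciita, the transactivator of class II genes, were too low to be tested, at 17.7 to 25.9 with vinclozolin and 7.7 to 22.4 with vehicle. Of the 13 tested genes of the histocompatibility list, 1 was called and the median log2 difference was 0.24, against 0.01 over all 11677 genes. Macrophage markers were not higher with vinclozolin. Csf1r, C1qa, C1qb, Cd68 and Ptprc summed to 439.7 and 386.3 with vinclozolin, against 760.1 and 397.9 with vehicle. RT1 genes form a family of similar sequences, and which relatives the probe set reads besides RT1-Bb was not tested.

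Class II promoters hold a conserved module whose Y box contains a CCAAT sequence and whose X box includes a sequence like a cyclic AMP response element. The 200 bases before the annotated start of RT1-Bb and of its partner RT1-Ba are printed here, since these genes lie at neighbouring loci and only the first was called. They come from RefSeq on GRCr8, RT1-Bb from chr20:4604119-4604318 on the minus strand and RT1-Ba from chr20:4576857-4577056 on the plus strand, each 5′ to 3′. Capitals mark CCAAT on either strand (ATTGG on the minus strand) and, in RT1-Ba, TGACGTCA.
RT1-Bb: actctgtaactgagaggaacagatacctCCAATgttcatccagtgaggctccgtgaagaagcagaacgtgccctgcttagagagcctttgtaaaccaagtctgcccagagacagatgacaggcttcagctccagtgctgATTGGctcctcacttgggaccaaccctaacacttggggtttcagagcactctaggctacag
RT1-Ba: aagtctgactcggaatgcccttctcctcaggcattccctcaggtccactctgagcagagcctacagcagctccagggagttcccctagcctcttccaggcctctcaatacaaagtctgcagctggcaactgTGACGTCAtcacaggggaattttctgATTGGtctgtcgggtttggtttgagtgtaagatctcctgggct
The RT1-Bb window held CCAAT at 172 to 168 bases before the start and, on the other strand, at 61 to 57 bases before it. RT1-Ba held it on the other strand at 43 to 39 bases and the palindrome TGACGTCA at 69 to 62 bases before the start, a sequence that the RT1-Bb window did not hold. CCAAT was present on either strand in 29.2% of the 33469 promoters of the table in the same window, and TGACGTCA in 1.46%. These matches describe the letters only.

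**Figure D1:**
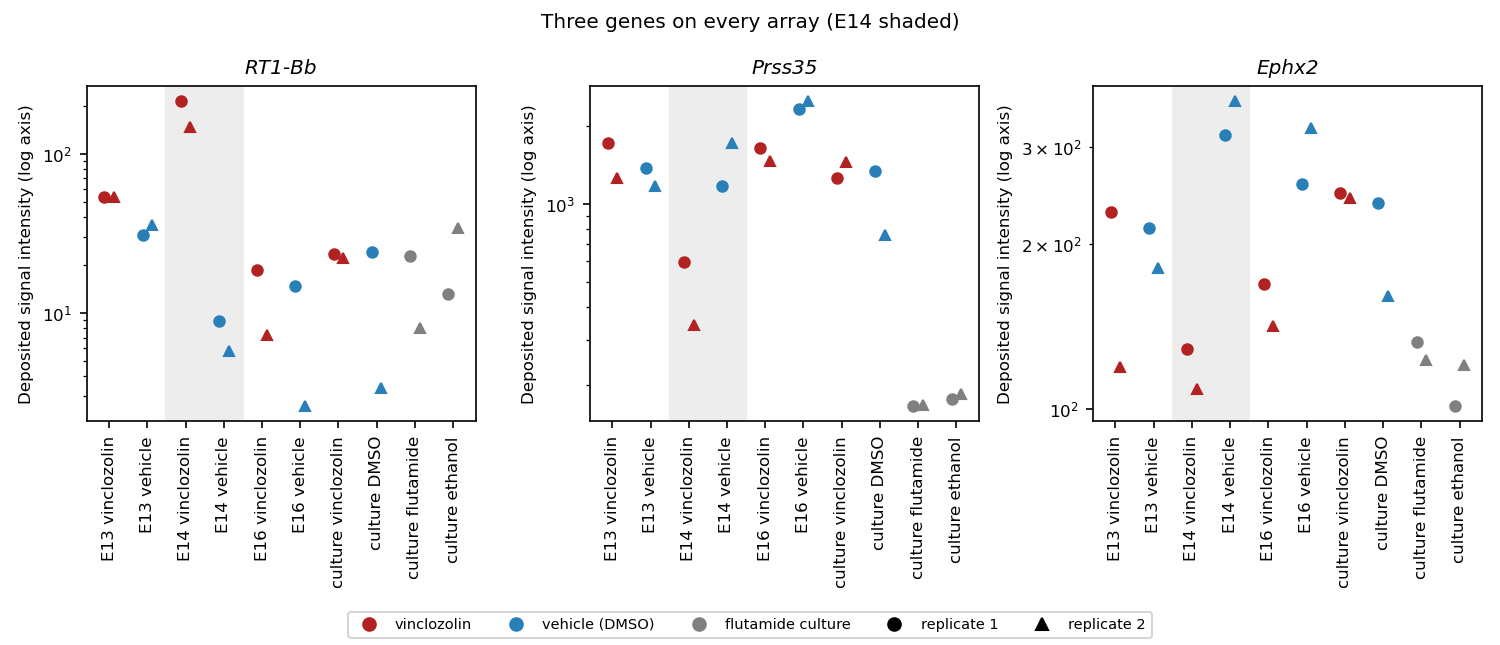
Deposited signal intensity (log axis) of RT1-Bb, Prss35 and Ephx2 on all 20 arrays, by group, with circles for replicate 1 and triangles for replicate 2. The flutamide culture arrays and their vehicle arrays were scaled to a trimmed mean of 107.0, against 210.1 in utero. At E14 (shaded), RT1-Bb read 213.3 and 147.7 with vinclozolin and 8.9 and 5.8 with vehicle, while Prss35 and Ephx2 were lower on both vinclozolin arrays than on both vehicle arrays.

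Differences that separated the groups by at least 1.5-fold between their nearest arrays were then collected, without a test. There were 120 such probe sets (0.533% of those tested). Vinclozolin was higher in 37 of them (0.164%) and lower in 83 (0.368%). The same 1.5-fold rule gave 56 probe sets at E13 (0.249%), 430 at E16 (1.91%), of which 395 were higher with vinclozolin (1.75%), and 108 with vinclozolin in culture (0.479%). Many of the E14 probe sets had low signal. In 29 of the 37 that were higher, both vehicle arrays lay under the 40th percentile, and in 36 of the 83 that were lower, both vinclozolin arrays did. All 4 arrays reached that percentile in 6 of the 37 and 40 of the 83. When values under the percentile were set to it, 53 probe sets were clear by the same distance, 9 higher and 44 lower with vinclozolin.

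Of the 37 probe sets that were higher, 11 had a gene symbol and reached the 40th percentile on both vinclozolin arrays, and RT1-Bb led them. Rnf213, a very large ubiquitin ligase (chromosome 10, 105154873 to 105254148), read 144.4 and 79 with vinclozolin, against 42.2 and 32.8 with vehicle. Its difference was 1.21 (SE 0.35, limma adjusted p = 0.888), and its other probe set differed by 0.84 in the same direction, with values of 157 and 66.6 with vinclozolin against 44 and 57.9 with vehicle. At E16, which shares no arrays with E14, Rnf213 was also higher with vinclozolin, by 1.07, as were 395 of the 430 probe sets clear at that stage. At E13 it read 91.1 and 145.1 with vinclozolin and 156.5 and 65.3 with vehicle, so the groups overlapped (0.15). Pdgfrb, the beta receptor for platelet-derived growth factor on perivascular and stromal cells, had a probe set at 269.5 and 321.2 with vinclozolin, against 174.2 and 135 with vehicle (0.87, SE 0.34). This probe set differed by 1.68 at E16, and at E13 by 0.52 with overlapping groups (188.2 and 88.6 with vinclozolin, 119.7 and 60.9 with vehicle). The Pdgfrb probe set of highest mean did not separate the groups, at 516.9 and 394.7 with vinclozolin and 562.4 and 457.8 with vehicle. Gpr137b, a lysosomal membrane protein, read 254.4 and 259.6 with vinclozolin, against 147.2 and 160.6 with vehicle (0.69, SE 0.19), and its 3 other probe sets differed by -0.46 to 0.38. Brcc3-ps7, a pseudogene by its symbol, read 93.5 and 101.3 with vinclozolin, against 40.8 and 44.1 with vehicle (0.96, SE 0.29). The other 6 genes, LOC102547352, Wdr35, Zan, Myg1, Fbxo41 and Nectin3, read 40 to 51.5 with vinclozolin and 3.6 to 25.5 with vehicle, where both vehicle arrays were under the 40th percentile. Counted from it, their differences were 0.07 to 0.26. Over the genes of the 37 probe sets, 9 of 18 further tested probe sets moved in the same direction, with a median log2 difference of -0.02, against 0.88 for the probe sets that had been chosen.

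The genes that were lower with vinclozolin were led by Prss35, which encodes a serine protease-like protein (chromosome 8, 96594460 to 96610992). Prss35 read 595 and 342.8 with vinclozolin, against 1165.9 and 1719.2 with vehicle. The groups did not overlap, and the difference was -1.61 (SE 0.26, limma adjusted p = 0.119). At E16 it read 1643.6 and 1462 with vinclozolin, against 2322.9 and 2481.3 with vehicle, and at E13 1717.2 and 1257.4 with vinclozolin, against 1376.7 and 1174 with vehicle. Both vinclozolin arrays were thus also the lower ones at E16 (-0.63, adjusted p = 0.679) but not at E13 (0.21). The difference at E14 passed the threshold without vinclozolin replicate 1 (-2.0, adjusted p = 0.0359) and without vehicle replicate 2 (-1.34, 0.0452), and it kept its direction in the other fits.

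Ephx2, the soluble epoxide hydrolase that turns epoxy fatty acids into diols (chromosome 15, 44465447 to 44503157), had a similar pattern. It read 128.5 and 108.7 with vinclozolin, against 314.9 and 363.4 with vehicle (-1.40, SE 0.24, limma adjusted p = 0.184). At E16 it read 168.5 and 141.7 with vinclozolin, against 257.1 and 325.5 with vehicle (-0.84, adjusted p = 0.545), and at E13 the groups overlapped (-0.23). Prss35 and Ephx2 have 1 probe set each here, so neither could be set against another of its gene. Mfsd10, of a family of membrane transporters, read 82.5 and 66.9 with vinclozolin, against 165.1 and 157.1 with vehicle (-0.97, SE 0.42). At E13 the groups overlapped, at 70.2 and 7.8 with vinclozolin and 75.6 and 56.9 with vehicle (-0.85). At E16 Mfsd10 read 18.2 and 29.8 with vinclozolin, both under the 40th percentile, against 49.5 and 100.2 with vehicle (-1.14).

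Agtr2, the type 2 receptor for angiotensin II, read 86.5 and 66.5 with vinclozolin, against 368.5 and 140.6 with vehicle (-1.42, SE 0.37, and -0.77 against vehicle replicate 2 alone). Vehicle replicate 1 was the farther vehicle array, and on the second Agtr2 probe set it stood alone, with 367 and 537.1 with vinclozolin against 2072.9 and 484.3 with vehicle. Akap12, a scaffold that anchors protein kinase A, read 124.8 and 113.6 with vinclozolin, against 334.4 and 242.5 with vehicle (-1.16, SE 0.24). Its second probe set lay in the same order, at 408.5 and 614 with vinclozolin and 1182.8 and 751.6 with vehicle. Gucy1a1, a subunit of the nitric oxide receptor guanylate cyclase, read 80.6 and 86.6 with vinclozolin, against 199.6 and 184.5 with vehicle (-1.06, SE 0.28). Kif11, a motor of the mitotic spindle, read 81.9 and 107.5 with vinclozolin, against 195.5 and 202.3 with vehicle (-0.97, SE 0.23). Nedd4, a ubiquitin ligase, was the single gene with more than 1 probe set in the lower set. Its probe set of larger difference read 863.2 and 1004.9 with vinclozolin, against 1872.9 and 1807.8 with vehicle (-0.97, SE 0.53). Outside the lower set, the Nedd4 probe set of highest signal had overlapping groups, at 3778.8 and 6294.3 with vinclozolin and 5762.4 and 5292.8 with vehicle. Another was lower without overlap, at 896.5 and 1008.4 with vinclozolin and 1386 and 1164.4 with vehicle.

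The remaining 7 genes named by rule were Zfp68 and Resf1, which act at chromatin or DNA, the tRNA synthetase Eprs1, the ligase adaptor Klhl42, the neuronal microtubule protein Stmn2, the Golgi protein Tgoln2 and the kinase Dyrk2. Their differences were -1.27 to -0.90. Zfp68 read 66.1 and 35.6 with vinclozolin, against 154.8 and 127.7 with vehicle. Of the 67 further tested probe sets of the genes in the lower set, 52 moved in the same direction, and their median difference was -0.26, against -0.88 for the chosen ones. The 83 probe sets were then read at the other stages and in culture. At E13, 70 of the 83 were higher with vinclozolin (51.7% of all probe sets were), at E16, 58 were higher (56.1%), and in culture 65 were lower (47.9%). Single vehicle arrays stood apart there too. Over all tested probe sets, E13 vehicle replicate 2 alone lay at least 2-fold below the other E13 arrays on 198. Culture vehicle replicate 2 alone lay as far above the other arrays of its comparison on 133. What these arrays contribute to the counts over the 83 was not tested. Vehicle replicate 1 was the farther of the vehicle arrays in 57 of the 83 and in 26 of the 37.

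**Figure D2:**
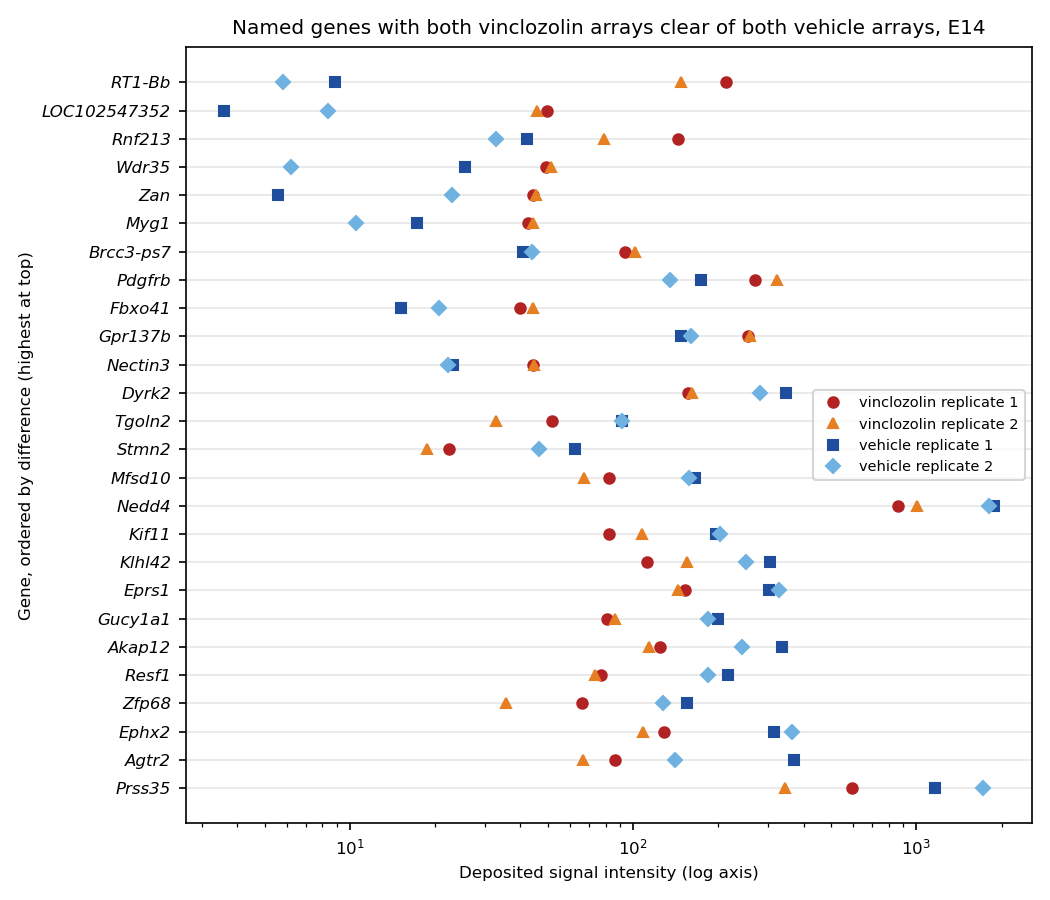
Deposited signal intensity (log axis) at E14 of the 26 named genes in which both vinclozolin arrays (circles and triangles) lay at least 1.5-fold outside both vehicle arrays (squares and diamonds). RT1-Bb had the widest gap between the groups, and 7 of the 11 genes that were higher had both vehicle arrays at or under 25.5.

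The effect at E14 was set against the mean of the effects at E13 and E16, a contrast in which no arrays are shared. No probe set passed (0 of 22526, smallest limma adjusted p 0.542, for RT1-Bb), and 1531 had an unadjusted p under 0.05 (6.80%). With a replicate block 7 passed, all lower, and without vehicle replicate 2 there were 65. For RT1-Bb the contrast was 2.69 (SE 0.47). It read 53.2 and 53.6 with vinclozolin at E13, against 30.9 and 35.7 with vehicle, and 18.5 and 7.3 with vinclozolin at E16, against 14.8 and 2.6 with vehicle. The next genes on the higher side were Dlgap4, a synaptic scaffold (0.82, SE 0.20), Brcc3-ps7 (1.39, SE 0.36), Dsg2, a desmosomal cadherin (0.91, SE 0.24), and Hps1, a factor of lysosome-related organelles (0.73, SE 0.19). Dsg2 read 354.1 and 418.2 with vinclozolin, against 214.9 and 272.8 with vehicle. On the lower side stood Nemf, of the ribosome quality control complex (-1.27, SE 0.25), Zfp68 (-1.52, SE 0.31), Zfp260 (-1.15, SE 0.24), Shprh, a DNA repair ligase (-1.10, SE 0.23), and Akap12 (-1.37, SE 0.30). Nemf read 77.4 and 111.3 with vinclozolin, against 143.3 and 186.2 with vehicle. Each of these 10 had non-overlapping groups at E14, which choosing by this contrast favours, since the contrast holds the E14 difference. Of all 22526 probe sets, 3149 were higher and 2961 lower with vinclozolin without overlap at E14. Apart from RT1-Bb, each of the 10 had a limma adjusted p of 0.724 in this contrast.

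A larger set of differences came from vehicle replicate 1 alone. A probe set was put in it when this array lay at least 2-fold from the nearest of the other 3 and vehicle replicate 2 lay under 1.5-fold from the vinclozolin range. There were 457 (2.03% of those tested), 286 with the array above the others (1.27%) and 171 with it below (0.759%). By the same rule vinclozolin replicate 1 set apart 81 probe sets (0.360%), vinclozolin replicate 2 69 (0.306%) and vehicle replicate 2 21 (0.0932%). Counts for the 12 arrays of the vinclozolin comparisons at E13, at E16 and in culture were 25 to 283. In the fit without vehicle replicate 2, where vehicle replicate 1 stood as the only vehicle array, 272 probe sets were called (1.21%), 100 higher (0.444%) and 172 lower (0.764%) with vinclozolin. Without vehicle replicate 1, 0 were called by limma (smallest adjusted p 0.137, with 469 at an unadjusted p under 0.05).

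**Figure D3:**
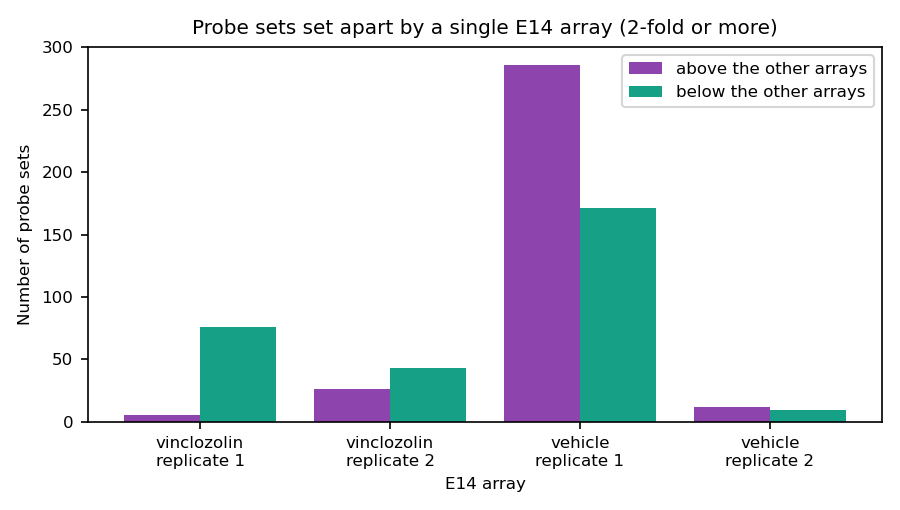
Number of probe sets in which a single E14 array lay at least 2-fold above or below the nearest of the other 3. Vehicle replicate 1 set apart 286 above and 171 below, and the other 3 arrays 21 to 81 in all.

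On 211 of the 286 probe sets above, vehicle replicate 1 also lay beyond all 11 other in utero arrays. The farthest was Thy1, a surface glycoprotein of fibroblasts and neurons (chromosome 8, 53286396 to 53291541). Thy1 read 65.3 and 105.3 with vinclozolin and 1034.6 and 87 with vehicle, so vehicle replicate 1 stood 8.66-fold from the nearest other array on the scale of intensity + 16. The contractile genes Acta1 and Myh3 of striated muscle read 16.4 and 12.7, and 2.7 and 1.2, on the vinclozolin arrays. On the vehicle arrays Acta1 read 169.8 and 16.8, and Myh3 71.8 and 1.9. Both were higher still on E16 vehicle replicate 1, at 693.3 and 382.7. Igfbp3, which binds insulin-like growth factors, had a probe set at 699.3 and 730.7 with vinclozolin and 3056.1 and 711.9 with vehicle. Rgs4, Gabrp, Fos, Myl11, Rprm, Cldn8, Smoc2, Moxd1, Oprk1, Ntrk2 and Apc2 completed the 15 farthest above, at distances of 3.90-fold to 5.67-fold. Of the 171 probe sets below, 59 lay beyond all other in utero arrays and 74 within the range of the 4 E13 arrays. The farthest were Zfp212, Sall4, Ngfr, P2ry2, Wipf3, Strip2, Mthfd2, Stag3, Sox2, Espn, Eps8, Amh, Tfap2c, Slc34a2 and Cpeb1, at 3.10-fold to 7.29-fold. On the other Zfp212 probe set vehicle replicate 1 was instead the highest array. That probe set read 612.5 and 676.8 with vinclozolin and 752.4 and 593 with vehicle. Ngfr, a neurotrophin receptor, read 552.5 and 425 with vinclozolin and 79.8 and 434.3 with vehicle. For 161 of the 171, the mean of the E13 arrays also lay below that of the other 3 E14 arrays, and for 221 of the 286 it lay above. The mean of the E16 arrays lay on the same sides for 135 of the 171 and 181 of the 286. Both counts come from probe sets chosen by their distance from those 3 arrays, so they do not place vehicle replicate 1 at a stage.

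Of the 37 gene lists, the Sertoli cell list had the median difference farthest from 0. Of its 21 tested genes, 10 were set apart below by vehicle replicate 1 and 0 above, where 0.933% and 1.52% of all genes were. Amh, the hormone that removes the Müllerian ducts (chromosome 7, 9557451 to 9559867), read 5795.5 and 4892.5 with vinclozolin and 1553.9 and 5697.9 with vehicle. Vehicle replicate 1 was the low array, and the groups overlapped. At E13 Amh read 372.4 and 1102.2 with vinclozolin and 106 and 1484.7 with vehicle, and at E16 1635.7 and 2151.7 with vinclozolin and 1942 and 2516.9 with vehicle. Inhbb, a subunit of inhibin B, read 2001.9 and 1484.3 with vinclozolin and 474.6 and 1748.6 with vehicle. Gata4, a transcription factor of testis somatic cells, read 3137.4 and 2289.7 with vinclozolin and 897.5 and 2432.9 with vehicle. Nr5a1, the regulator of Sertoli and steroidogenic genes, read 1043.7 and 768.3 with vinclozolin and 338.1 and 768.6 with vehicle. Dhh, the cord signal that acts on Leydig cells, read 641.3 and 392 with vinclozolin and 185.7 and 454.7 with vehicle. Inha, Tesc, Mro, Aard and Cyp26b1 were the other 5, at log2 distances of 1.02 to 1.47 below the nearest array. Wt1, present in Sertoli and other somatic cells of the gonad, differed little, at 3404.9 and 3073.2 with vinclozolin and 2889.5 and 3183.5 with vehicle. In bulk RNA, fewer cells of a type and less RNA per cell cannot be told apart.

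The promoters of Amh and Egr1 are printed because these genes lay on opposite sides on vehicle replicate 1. They are again the 200 bases before the start from RefSeq on GRCr8, Amh from chr7:9559868-9560067 on the minus strand and Egr1 from chr18:26736878-26737077 on the plus strand. Capitals mark AAGGTCA, the type of half-site that Nr5a1 binds, in Amh, and the CArG box bound by serum response factor in Egr1.
Amh: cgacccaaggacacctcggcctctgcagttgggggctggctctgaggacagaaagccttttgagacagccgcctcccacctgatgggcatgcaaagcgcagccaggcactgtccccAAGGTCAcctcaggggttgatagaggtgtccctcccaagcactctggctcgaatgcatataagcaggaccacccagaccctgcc
Egr1: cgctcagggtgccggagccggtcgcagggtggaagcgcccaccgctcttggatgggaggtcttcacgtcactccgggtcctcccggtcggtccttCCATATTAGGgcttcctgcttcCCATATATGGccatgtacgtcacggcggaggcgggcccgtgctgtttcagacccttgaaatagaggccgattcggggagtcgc
AAGGTCA stood at 84 to 78 bases before the Amh start and in 3.09% of all promoters of the table, on either strand in the same window. Egr1 held CArG boxes at 105 to 96 and 83 to 74 bases before its start, and 1.16% of all promoters held at least 1. Neither match is shown by these data to act at this stage.

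Of 12 germ cell genes tested, 3 were set apart below by the same array and 0 above, where 0.933% and 1.52% of all genes were. Ifitm3 and Tdrd7 were instead highest on this array, at 2274.5 and 231. Sall4, a germ cell transcription factor, read 269 and 349.8 with vinclozolin and 42.1 and 309 with vehicle. Tfap2c, needed to specify germ cells in mice, read 377.4 and 249.8 with vinclozolin and 69.4 and 315.7 with vehicle. Sox2 read 501.6 and 417.2 with vinclozolin and 118.5 and 493.5 with vehicle. Lin28a and Nanos3, with log2 differences of 0.86 and 0.61 (0.48 and 0.28 against vehicle replicate 2 alone), also had vehicle replicate 1 as their lowest array, at distances of 0.76 and 0.67.

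Genes of red blood cells and of the mesonephros, the transient kidney beside the gonad, were higher on vehicle replicate 1. Over all genes, 1.52% were set apart above by this array and 0.933% below. Of 17 erythroid genes, 8 were set apart above and 0 below (Hba-a3, Hbb, Alas2, Ahsp, Slc4a1, Klf1, Rhag and Hemgn), and 16 were higher on vehicle replicate 1 than on vehicle replicate 2. Alas2, the first enzyme of heme synthesis in red cells, read 561.6 and 636.3 with vinclozolin and 1678.3 and 464.1 with vehicle. Of 22 mesonephric tubule genes, 7 were set apart above and 0 below (Cdh16, Lhx1, Gata3, Krt19, Cdh6, Cldn6 and Cldn7). Cdh16, the kidney cadherin, read 41.8 and 58.5 with vinclozolin and 242.8 and 43.8 with vehicle. The mesonephric markers Pax2, Pax8, Cdh16 and Lhx1 summed to 174.5 and 251.7 with vinclozolin and 644.7 and 194 with vehicle, and all 4 were highest on vehicle replicate 1. Th and Dbh, enzymes of catecholamine synthesis, read 56.3 and 34.7, and 45.7 and 24, with vinclozolin. With vehicle Th read 211.6 and 32.5 and Dbh 129.6 and 30.7. The sympathetic and neural markers (Th, Dbh and Stmn2) summed to 124.4 and 77.4 with vinclozolin and 403.8 and 109.9 with vehicle. Of the 17 genes of the wider neural list, 3 were set apart above (Th, Dbh and Chgb) and 1 below (Ngfr, given above), and 10 were higher on vehicle replicate 1 than on vehicle replicate 2. Adrenal Cyp11b1 read 21.4 and 3.3 with vinclozolin and 81 and 23.7 with vehicle. What these markers contribute to the other differences of vehicle replicate 1 was not tested.

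Retinoic acid is made beside the gonad by Aldh1a enzymes and broken down inside the testis cords by Cyp26b1. Of 16 genes of the retinoic acid list, 7 were set apart above by vehicle replicate 1 and 1 below, where 1.52% and 0.933% of all genes were. Aldh1a2 read 2000.1 and 1823.9 with vinclozolin and 4159.1 and 1685.8 with vehicle. Cyp26b1, the 1 gene below, read 3542.4 and 2914.6 with vinclozolin and 1030 and 2877.4 with vehicle. Rarb, a receptor gene induced by retinoic acid, read 112.2 and 148.5 with vinclozolin and 581.2 and 114.9 with vehicle, and Aldh1a3, Rdh10, Dhrs3, Crabp1 and Stra6 were also higher on this array. Of 16 interstitial and stromal genes, 5 were set apart above (Nr2f1, Dcn, Ogn, Lum and Thy1) and 0 below. Dcn, the matrix proteoglycan decorin, read 248.5 and 423 with vinclozolin and 1172 and 286.8 with vehicle.

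**Figure D4:**
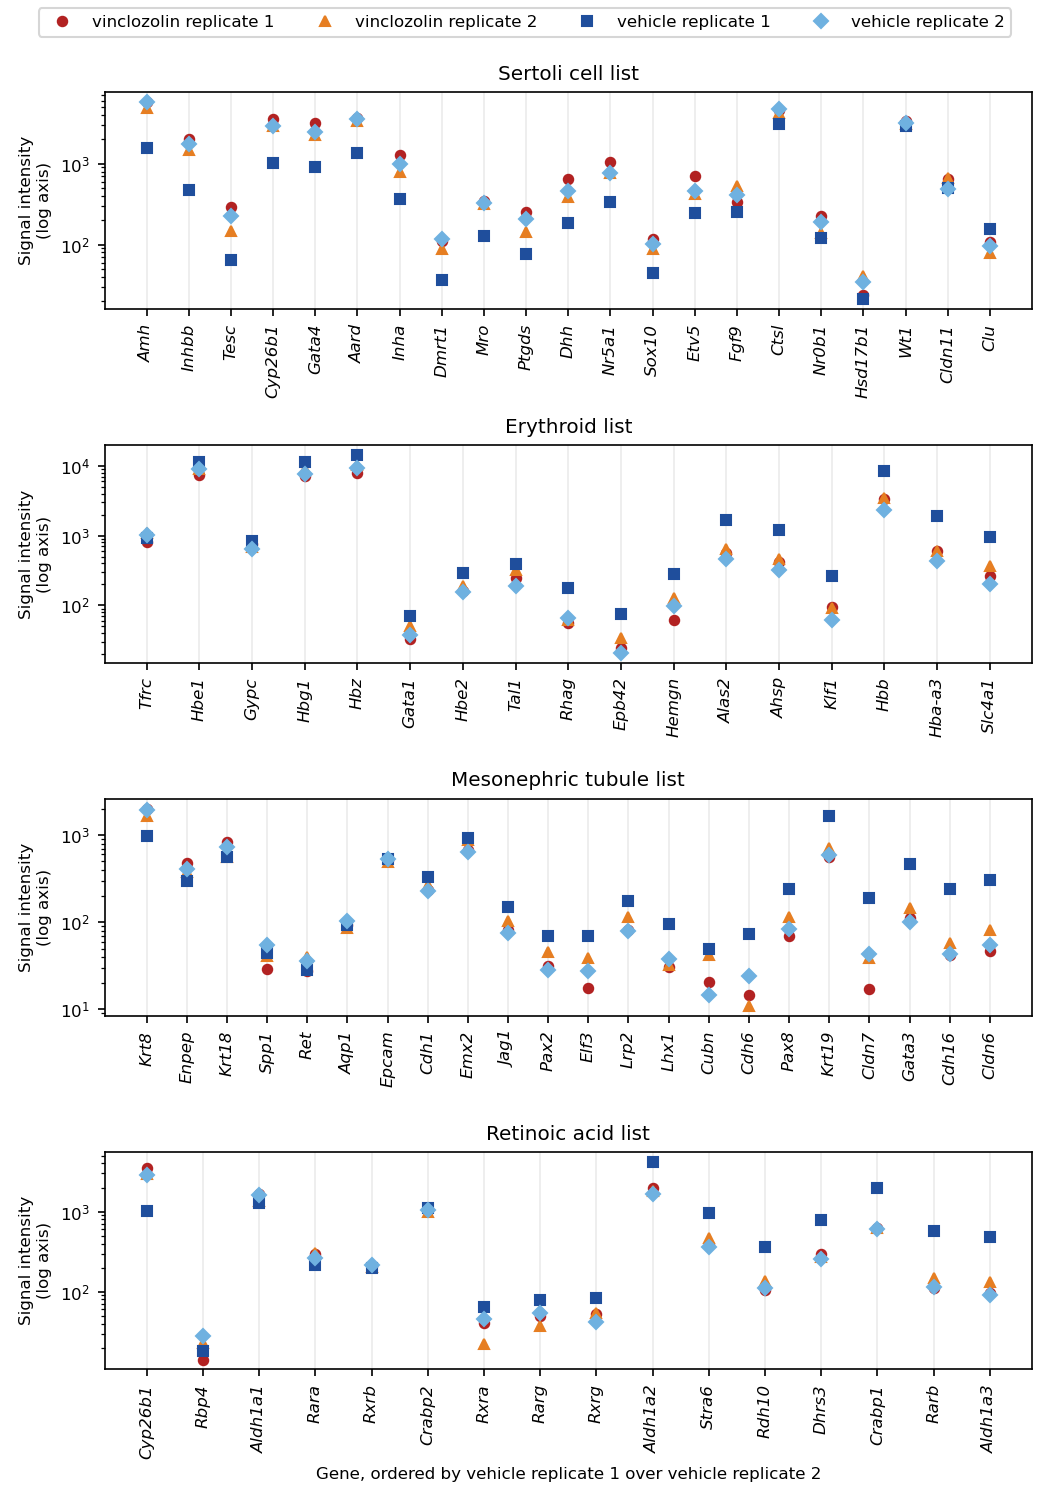
Deposited signal intensity (log axis) on the 4 E14 arrays of every tested gene of the Sertoli cell, erythroid, mesonephric tubule and retinoic acid lists, ordered by vehicle replicate 1 over vehicle replicate 2. Vehicle replicate 1 (squares) lay under the other 3 arrays for 10 of 21 Sertoli genes by at least 2-fold and above them for 8 of 17 erythroid, 7 of 22 mesonephric and 7 of 16 retinoic acid genes, while vehicle replicate 2 lay near the vinclozolin arrays. Over all genes, 0.933% lay under and 1.52% above by the same rule.

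Several immediate early genes, which are induced rapidly by many stimuli, were also set apart by this array. Fos read 18.3 and 289.2 with vinclozolin and 1534.6 and 39.8 with vehicle, and Egr1 228.9 and 575 with vinclozolin and 1936.1 and 196.2 with vehicle. The vinclozolin arrays also differed between themselves, with both genes higher on replicate 2. Of 31 immediate early genes, 5 were set apart above by vehicle replicate 1 (Fos, Jun, Egr1, Atf3 and Klf6) and 0 below, where 1.52% and 0.933% of all genes were. Junb read 38.4 and 49.3 with vinclozolin, against 113.5 and 71.9 with vehicle (-0.84, and -0.56 against vehicle replicate 2 alone), and Nr4a1 129.1 and 102.2 with vinclozolin and 115.1 and 89.9 with vehicle. Egr3 alone of the list had both vinclozolin arrays clear above the vehicle arrays, at 30.9 and 34.4 against 13.1 and 14.7, all under the 40th percentile.

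For some lists the median shift depended on which vehicle array it was set against. Of the 37 list medians, 26 moved by less than the spread between arrays when set against vehicle replicate 2 alone, and 31 when set against vehicle replicate 1 alone. The median log2 difference of the Sertoli list was 0.65 against both vehicle arrays, 1.16 against vehicle replicate 1 and 0.01 against vehicle replicate 2. For the germ cell list these medians were 0.46, 0.74 and 0.03. For the erythroid list they were -0.36, -1.0 and 0.13, for the mesonephric list -0.23, -0.64 and 0.06, and for the retinoic acid list -0.46, -0.73 and 0.12. The interstitial list had medians of -0.33, -0.47 and -0.02, and the macrophage list -0.51, -0.72 and -0.15. Over all 11677 genes the medians were 0.01, 0.00 and 0.03. In these 7 lists, chosen after their values were seen, the median against vehicle replicate 2 was nearer 0 than the one against both arrays. The liver and ovary-type lists went the other way, with -0.13 and 0.07 against both vehicle arrays and -0.49 and 0.29 against vehicle replicate 2. The histocompatibility list hardly moved, at 0.24, 0.21 and 0.18.

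**Figure D5:**
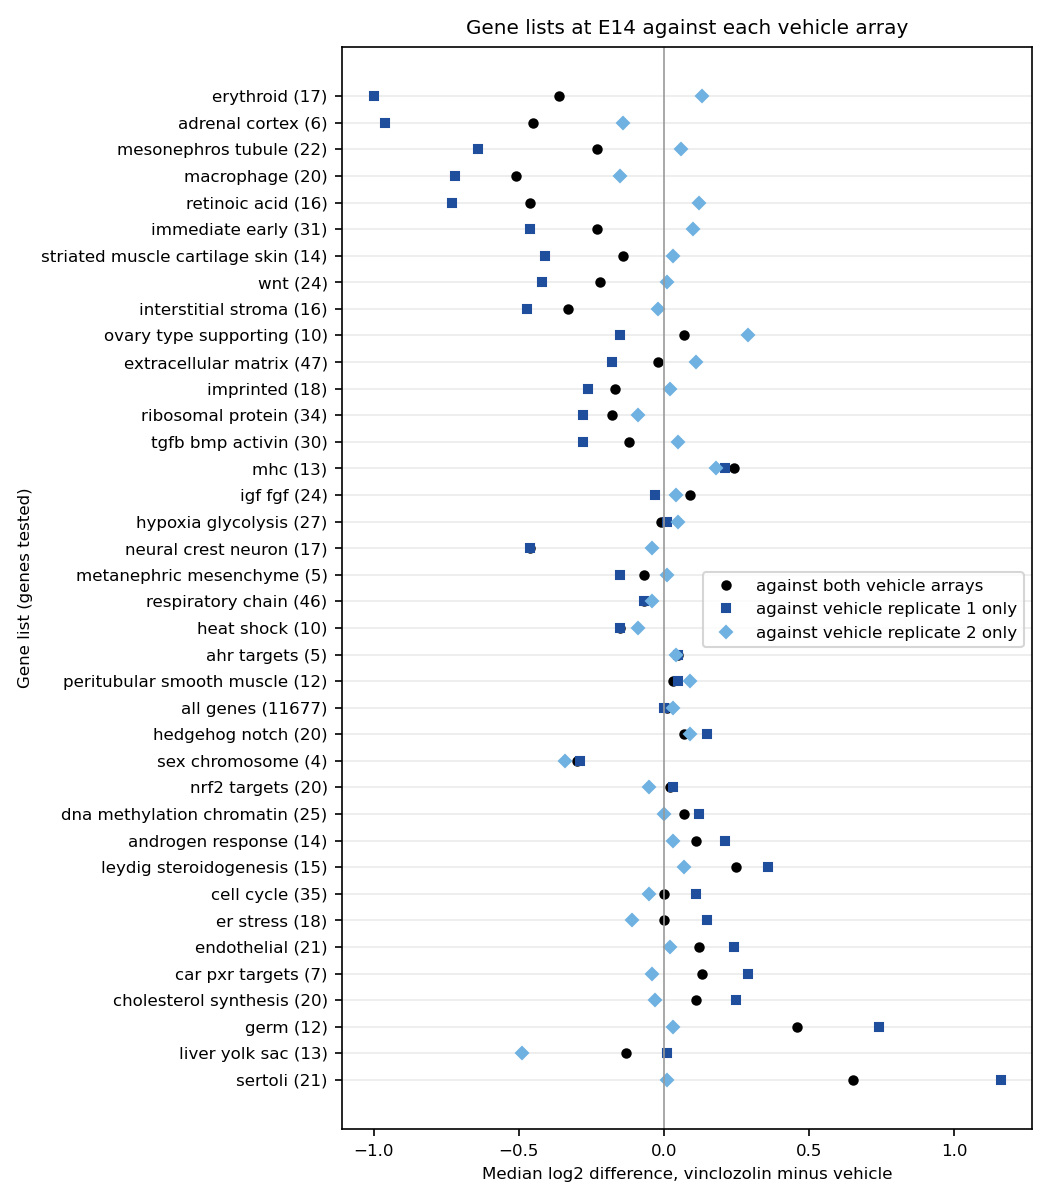
Median log2 difference at E14, vinclozolin minus vehicle, of 37 gene lists and of all genes, against both vehicle arrays (circles), vehicle replicate 1 only (squares) and vehicle replicate 2 only (diamonds). The Sertoli median was 1.16 against vehicle replicate 1 and 0.01 against vehicle replicate 2, and the erythroid medians were -1.0 and 0.13.

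Genes of androgen synthesis and androgen response were examined because vinclozolin is an antiandrogen. None of the 15 tested genes of steroidogenesis was called. Star, which moves cholesterol into mitochondria, read 73.5 and 101 with vinclozolin, against 63.6 and 55.4 with vehicle (0.44, SE 0.22, limma adjusted p = 0.888), and the groups did not overlap. Cyp11a1, the first enzyme of steroid synthesis, read 38.9 and 33.5 with vinclozolin, against 67 and 34.1 with vehicle (-0.31, SE 0.20, and 0.06 against vehicle replicate 2 alone). Hsd3b1 read 249.3 and 253.6 with vinclozolin and 524.3 and 195.6 with vehicle, so vehicle replicate 1 was again the distant array. Cyp17a1 (10 and 35.2 with vinclozolin, 4.3 and 22.5 with vehicle) and Insl3 (10.2 and 33.7 with vinclozolin, 31 and 17.3 with vehicle) were near the floor of the arrays. At E16 the same probe sets read 2657 to 7448 and 535.5 to 2638.5. The median of the steroidogenesis list was 0.25 against both vehicle arrays and 0.07 against vehicle replicate 2.

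Of 14 androgen response genes, 0 were called and the median was 0.11 (0.03 against vehicle replicate 2). Fkbp5, a chaperone gene induced by androgens and glucocorticoids, read 769.2 and 872.1 with vinclozolin, against 410.8 and 740.7 with vehicle. Its difference was 0.56 against both vehicle arrays and 0.14 against vehicle replicate 2 alone. Rhox5, an androgen-dependent homeobox gene of postnatal mouse Sertoli cells, read 336.7 and 303.8 with vinclozolin and 133.2 and 350.7 with vehicle. Klk1, a kallikrein, read 135.1 and 119.3 with vinclozolin and 30 and 83.6 with vehicle. Rhox5 and Klk1 were the 2 genes of the list that vehicle replicate 1 set apart, both below, where 0.933% of all genes were. The lists of xenobiotic response had medians of 0.05 for 5 targets of the aryl hydrocarbon receptor, 0.13 for 7 targets of the receptors CAR and PXR, and 0.02 for 20 targets of Nrf2. None of their genes was called or separated by 1.5-fold. The list of 20 genes of cholesterol synthesis had a median of 0.11 against both vehicle arrays and -0.03 against vehicle replicate 2.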

How the data were processed

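RNA of embryonic rat testes was measured on 20 arrays, 4 of them at E14. The deposited values are signal intensities on a linear scale that the authors made with MAS5 and GCOS, per the submitters' processing notes, with versions not given in the sources used here. Each in utero array had a mean intensity of 210.1 after 2% of the probe sets were trimmed at each end. The arrays of the flutamide culture and its vehicle had 107.0, and those of the vinclozolin culture and its vehicle 218.1. Beta-actin 3' over 5' signal was 9.08 to 11.06 on the arrays of the flutamide culture and its vehicle. Scanner files were not used here. Of 31099 probe sets, 57 controls were left out. Of the other 31042, 20826 had 1 gene symbol in the platform annotation, 436 several and 9780 none, and gene positions are those of RefSeq on GRCr8.

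Values were taken as log2(intensity + 16), on which scale fold changes of low genes are understated. Probe sets at or above the 40th percentile of at least 2 of the 20 arrays were tested (22526), and the 40th percentile was 34.5 and 40.7 on the vinclozolin arrays and 41.2 and 37.9 on the vehicle arrays of E14. In lists a gene was represented by its probe set of highest mean log2 value (11677 genes). The test was limma 3.58.1 (lmFit and eBayes with trend, two-sided) in R 4.3.3, with 1 mean for each of 10 groups, so that the spread came from all 20 arrays with 10 degrees of freedom, and with Benjamini-Hochberg adjustment over all probe sets tested. The median SE of the E14 difference was 0.24 and its median -0.02. The number of arrays limits the precision.

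Groups came from the array titles. The genes named are those called, the 15 with the largest and the 15 with the smallest difference among clear probe sets with 1 symbol whose higher group reached the 40th percentile on both arrays, the 15 farthest above and below for vehicle replicate 1, the 5 of smallest p in each direction of the stage contrast, the members of gene lists with the smallest p, and a fixed set of sex, steroidogenic and immediate early genes. List members beyond that rule were named after their values were seen. The genes, lists and markers were chosen with earlier results of these data known. Alternatives were the normalization, the pseudocount, the filter, the arrays fitted, the trend, the distances, a replicate block and each array left out. Deviations of same-numbered arrays of the vinclozolin and vehicle groups correlated at 0.602 at E13, -0.055 at E14 and -0.112 at E16. The labels state no pairing, so no block was used in the main test.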

Additional observations from a re-analysis of the deposited data

How the results depend on the processing

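With 2 arrays a group, precision is limited by the number of arrays, and low genes also by their signal over background. The 1 call at E14 became 0 with a pseudocount of 1 and with the 4 E14 arrays alone, and 567 (249 higher, 318 lower) by an unadjusted p under 0.05 with at least 1.5-fold and no overlap. With a replicate block it was 3, RT1-Bb higher and Chgb and 1 unnamed probe set lower, and without each E14 array in turn 0 to 272, the 272 without vehicle replicate 2. The other 7 settings gave 1. The contrast with the other stages had 0 calls, 1 with a pseudocount of 64, 7 (all lower) with the replicate block, 8 when the E16 numbers were crossed in it (chosen after seeing the data, with 3 calls at E14), 929 by the unadjusted rule, and 0 to 65 without each array, the 65 without vehicle replicate 2. That contrast could not be made with the 4 E14 arrays alone. The 120 clear probe sets became 318 and 26 with pseudocounts of 1 and 64, 200 with no filter, 71 with a filter at the median, 78 with a filter over the 4 arrays, 1076 and 14 at distances of 1.2-fold and 2-fold, 53 with values under the 40th percentile set to it, and 451 to 2039 without each array, the last 2 chosen after seeing the data. Quantile normalization gave 83. The 457 probe sets of vehicle replicate 1 became 813 and 176 with those pseudocounts, and 1490 and 25 at distances of 1.5-fold and 4-fold. Fewer arrays or another distance changes such counts by construction, and for the other settings the cause was not tested. Signs turned for low or variable genes. With values under the 40th percentile set to it, Cyp17a1 and Egr3 each came to -0.05. Without each array in turn, Cyp11a1 ranged over -0.67 to 0.06, Cyp17a1 over -0.10 to 0.87, Insl3 over -0.59 to 0.33 and Xist over -2.03 to 1.37. Over all the named differences checked, those just given included, 622 values under alternatives kept their direction and side of the threshold, and 8 turned sign. The rest moved in size or crossed the threshold.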

Other observations

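Ribosomal protein genes read slightly lower on the vinclozolin arrays, with the larger difference against vehicle replicate 1. Of 34 tested, 16 had both vinclozolin arrays below both vehicle arrays and 0 above, where 10.6% and 15.9% of all genes did, and none was called. The median log2 difference was -0.18, with -0.09 against vehicle replicate 2 and -0.28 against vehicle replicate 1. Vehicle replicate 1 was the higher of the vehicle arrays for 32 of the 34. Rplp0, of the ribosomal stalk, read 7620.2 and 7614.6 with vinclozolin, against 10458.1 and 8412.3 with vehicle. Of 46 genes of the respiratory chain, 10 were lower without overlap and 1 was higher.

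Some genes known from the ovary-type supporting lineage were highest on vinclozolin replicate 2, and others on vehicle replicate 1. Fst, follistatin, read 76 and 379.8 with vinclozolin and 90.3 and 75.4 with vehicle. Foxl2, a regulator of granulosa cells, read 49.2 and 117.3 with vinclozolin and 32.5 and 33.8 with vehicle. The 3 markers Foxl2, Fst and Rspo1 summed to 126.4 and 512.7 with vinclozolin and 130.7 and 111.3 with vehicle. Of the 10 tested genes of the list, Wnt4, Bmp2, Irx5, Ctnnb1 and Axin2 were highest on vehicle replicate 1, at 1392.6, 326.1, 43.9, 10944.8 and 205.1. Vinclozolin replicate 2 also had the highest Xist of the E14 arrays, 489.9, and its Sertoli markers summed to 6913.7. Whether these values bear on the E14 differences was not tested.

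Liver genes were highest on vehicle replicate 2. Alb, serum albumin, read 125.8 and 253 with vinclozolin and 21.5 and 858.9 with vehicle. Ahsg, Apoa2, Cp, Cyp2c7 and Cyp2c12 were also set apart by this array, at intensities of 45.9 to 68.8. Afp, made by fetal liver and yolk sac, did not follow, at 29.9 and 32.6 with vinclozolin and 36 and 33.8 with vehicle. The median of the liver and yolk sac list was -0.13 against both vehicle arrays and -0.49 against vehicle replicate 2.

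Among probe sets set apart by 1 vinclozolin array, Dguok, a mitochondrial kinase of deoxynucleosides, read 189.6 and 8.8 with vinclozolin and 4.4 and 2.5 with vehicle. Arhgap1 was the reverse case, at 166.5 and 20.8 with vinclozolin and 145.6 and 166.4 with vehicle. Of probe sets with no symbol here, 1378849_at read 128.4 and 298.5 with vinclozolin, against 56.4 and 56.7 with vehicle. The probe set 1371776_at read 258.4 and 275.2 with vinclozolin, against 1400.9 and 677.2 with vehicle (-1.81, limma adjusted p = 0.286).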
